A study of Mus musculus with 44 samples.

Results

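The CCN proteins are secreted matricellular proteins, which sit in the extracellular matrix and modulate signalling at the cell surface without serving as structural fibres. The family was taken here as the 5 genes Ccn1, Ccn2, Ccn3, Ccn4 and Ccn5, formerly Cyr61, Ctgf, Nov, Wisp1 and Wisp2. Members were found by their gene symbol in the platform annotation, which gave 8 of the 22690 probe sets and 5 of the 12394 genes tested. For Ccn1, Ccn3 and Ccn4, which have 2 probe sets each, the one with the larger SD over the arrays carries the gene's value and the other is given beside it.

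The study measured left ventricular RNA of 44 mice on Affymetrix 430A 2.0 arrays, with 1 mouse per array, to compare a transgenic model of dilated cardiomyopathy with its background strain under an antibody against CTGF, the Ccn2 protein. PKCε mice expressed a constitutively active rabbit PKCε in cardiomyocytes from the mouse Myh6 promoter on an FVB/N background, and nontransgenic FVB/N mice were the controls. The groups were PKCε mice given FG-3149 (12 mice, 6 female), PKCε mice given IgG (10, 5 female), FVB/N mice given FG-3149 (12, 6 female) and FVB/N mice given IgG (10, 7 female). FG-3149 is the anti-CTGF antibody and IgG is nonimmune mouse immunoglobulin. Both were injected into the peritoneum at 30 mg/kg, 2 times per week for 3 months, and all mice were 6 months old when tissue was taken.

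CCN proteins share a secretory signal and a set of modules that resemble insulin-like growth factor binding proteins, von Willebrand factor type C repeats and thrombospondin type 1 repeats. All but CCN5 also carry a cystine knot at the carboxy end. They bind integrins, proteoglycans and growth factors, and Ccn1 and Ccn2 are transcriptional targets of the Hippo effectors YAP and TAZ, of serum response factor and, for Ccn2, of TGF-β. In the heart CCN2 is best known as a profibrotic factor made by fibroblasts and stressed cardiomyocytes, while CCN5, which lacks the cystine knot, has been described as opposing fibrosis in mouse hearts. CCN3 has been described as opposing CCN2, and CCN4 as a Wnt-induced protein that promotes fibroblast proliferation.

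All values are log2 ratios of a probe set to its own median over the 44 arrays, as scaled by the authors. A value of 0 is therefore the middle of these arrays, levels cannot be compared between genes, and signal over background is unknown. Differences come from 1 limma fit over 12394 genes with a term for sex, given with the SE of the fit, and a gene was called at an adjusted p (Benjamini-Hochberg, over all genes of the comparison) under 0.05. In tissue RNA, fewer cells of a type and less RNA per cell cannot be told apart.

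Some arrays stood apart. The mean of Sln, Myl7 and Myl4, which are markers of atrial cardiomyocytes, was above 4 on 10 arrays, among them 5 of the 10 FVB/N IgG arrays, all female. The others were 2 PKCε FG-3149 arrays, 2 PKCε IgG arrays and 1 FVB/N FG-3149 array. The group medians of this score were -0.60 in PKCε FG-3149, 0.22 in PKCε IgG, -1.76 in FVB/N FG-3149 and 4.90 in FVB/N IgG mice. Some arrays lay just below the cut, with 3.82 on FVB/N IgG replicate 5 and 3.37 on FVB/N FG-3149 replicate 9. That replicate 5 is 1 of only 2 FVB/N IgG females that remain without the 10 arrays. PKCε IgG replicates 9 and 10 had Sftpc and Scgb1a1, which are markers of lung, both above 3. Scgb1a1 without Sftpc was above 3 on further arrays, all labelled female. They are FVB/N IgG replicates 4, 5 and 9, FVB/N FG-3149 replicates 5, 6 and 7 and PKCε FG-3149 replicate 7, with up to 9.36. Leaving out the arrays with lung markers does not remove these. Scgb1a1 was also called higher in females (2.29, adjusted p = 0.0189 in limma). FVB/N FG-3149 replicate 11 is labelled female but had a Uty log2 ratio of 3.63, against at most 0.02 on the other arrays labelled female and at least 3.78 on male arrays. The arrays left out below are the 10 with high atrial markers, the 2 with both lung markers above 3, and this replicate 11. Where the call of a member, by the probe set that carries its value, ended below without these arrays, the result without them is given beside it. For genes of the other lists, only counts without these arrays are given, and only for some lists.

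The promoter of Ccn1 is shown because it was the only one available. The RefSeq table for build GRCm38.p6 held a promoter for 1 of the 5 members. The window lies on the minus strand at chr3:145649936-145650235, and runs over 250 bases before and 50 bases after the gene start.

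Ccn1: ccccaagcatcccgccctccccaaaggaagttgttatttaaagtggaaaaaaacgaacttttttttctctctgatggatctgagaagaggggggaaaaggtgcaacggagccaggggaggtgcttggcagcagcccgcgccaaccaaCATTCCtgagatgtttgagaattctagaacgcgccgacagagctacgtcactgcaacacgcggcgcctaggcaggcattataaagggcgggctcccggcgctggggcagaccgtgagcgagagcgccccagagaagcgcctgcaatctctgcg

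The capitals mark the reverse complement of GGAATG, the motif of the TEAD factors through which YAP and TAZ act, found 103 bases before the gene start. On both strands searched, 14.7% of the 32851 promoters in the table held that motif. The CREB element TGACGT matched on the minus strand 59 bases before the start and is held by 7.51% of promoters. TATAAA matched 25 bases before the start and is held by 13.6%. The CArG box of serum response factor had no match in this window and is held by 1.63% of promoters. The 3 matches do not overlap, and a match is a description of letters only.

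**Figure D1:**
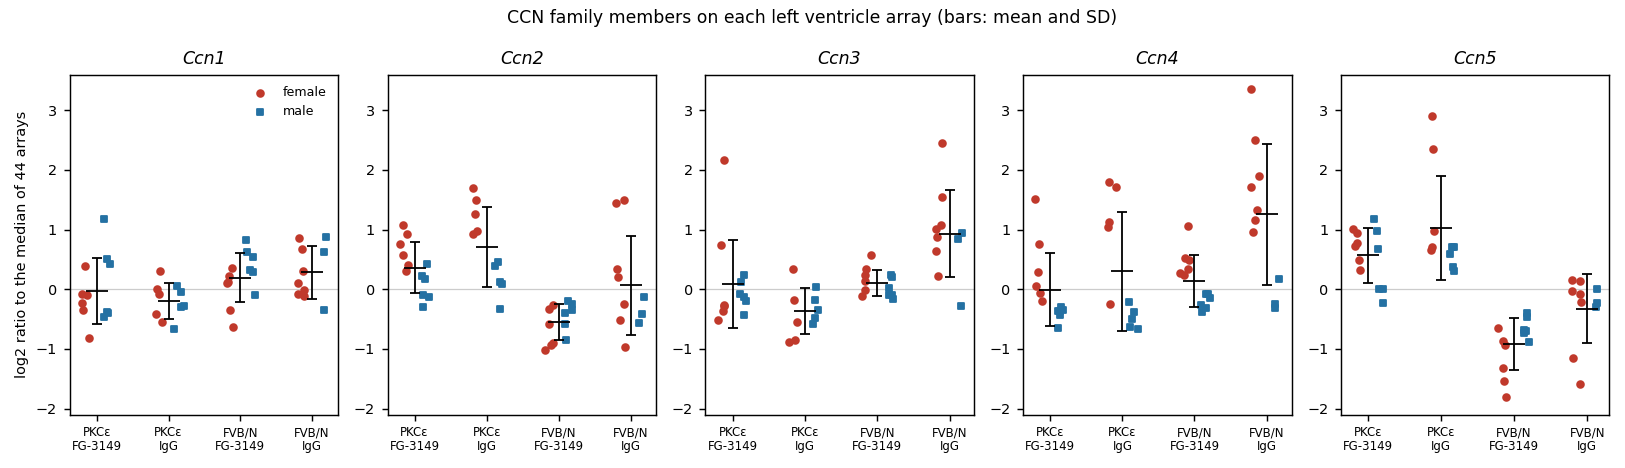
Log2 ratio to the median of 44 arrays (vertical axes) of each CCN member on each array in the 4 groups (horizontal axes), with females as circles and males as squares, and the mean and SD of each group as bars. For Ccn5 every PKCε array lies above every FVB/N array given the same injection, and for Ccn4 the FVB/N IgG females reach up to 3.36.

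The first comparison asks how transgenic and nontransgenic ventricles differed under control IgG. All 5 members passed the test, in opposite directions: Ccn5 and Ccn2 rose in PKCε IgG mice, while Ccn3, Ccn4 and Ccn1 fell. In this comparison 42.2% of all genes were called (20.7% higher, 21.5% lower), so a call by itself sets no member apart. The sizes ranged from a 2.60-fold rise of Ccn5 to a 2.38-fold fall of Ccn3.

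Ccn2 encodes CTGF, the target of the antibody, and lies at chr10:24595442-24598683 (all gene coordinates are GRCm38.p6 from the RefSeq table, since the files name no build). It had a lowest, median and highest log2 ratio of -0.33, 0.70 and 1.69 on the 10 PKCε IgG arrays and of -0.97, -0.19 and 1.50 on the 10 FVB/N IgG arrays. Of the PKCε arrays, 9 lay above the FVB/N median and 2 above every FVB/N array, so the groups overlapped. The difference was 0.74 ± 0.23 (1.67-fold, adjusted p = 0.00756 in limma). FVB/N IgG replicates 2 and 3, both with high atrial markers, held the top of the control range at 1.50 and 1.45.

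Ccn5 lies at chr2:163820752-163833146. Its log2 ratio ran over 0.31, 0.71 and 2.90 (lowest, median, highest) in PKCε IgG mice and over -1.59, -0.14 and 0.16 in FVB/N IgG mice. All 10 PKCε arrays lay above every FVB/N array, a separation seen in 4.38% of all genes. The difference was 1.38 ± 0.26 (adjusted p = 3.74e-05 in limma). PKCε IgG replicates 9 and 6 stood highest at 2.90 and 2.35, and the other 8 lay between 0.31 and 0.97. Replicate 9 is one of the arrays with lung markers and replicate 6 one of those with high atrial markers.

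Ccn3, at chr15:54745910-54753762, went the other way. It ran over -0.89, -0.42 and 0.35 in PKCε IgG mice and over -0.28, 0.91 and 2.45 in FVB/N IgG mice. All 10 PKCε arrays lay below the FVB/N median and 6 lay below every FVB/N array. The difference was -1.25 ± 0.24 (adjusted p = 4.8e-05 in limma), and the other probe set gave -1.11 ± 0.21 (adjusted p = 5.09e-05 over all probe sets, 41.7% of which were called).

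Ccn4 lies on the same chromosome, at chr15:66891369-66923201. Its log2 ratio was -0.66, -0.23 and 1.80 in PKCε IgG mice and -0.32, 1.24 and 3.36 in FVB/N IgG mice. The groups overlapped widely, with 4 of the 10 PKCε arrays below every FVB/N array. It fell by 0.71 ± 0.25 (adjusted p = 0.0199 in limma), and by 0.81 ± 0.16 on the other probe set. Without PKCε IgG replicate 10 the value was -0.57 and the call was lost (adjusted p = 0.0624).

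Ccn1 lies at chr3:145646971-145649985 and encodes an immediate early matricellular protein that is induced within minutes by growth factors and stretch. It ran over -0.67, -0.18 and 0.31 in PKCε IgG mice and over -0.35, 0.20 and 0.87 in FVB/N IgG mice. The ranges overlapped, with 9 of the 10 PKCε arrays below the FVB/N median. The difference was -0.53 ± 0.19 (adjusted p = 0.0218 in limma). The other probe set gave -0.41 ± 0.18 and was not called (adjusted p = 0.0657).

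These calls did not rest equally on the arrays with atrial markers. Without the 10 arrays, Ccn2 differed by 1.14 (adjusted p = 0.000184), Ccn3 by -0.88 (0.000252) and Ccn5 by 1.58 (0.000282), all still called. Ccn4 dropped to -0.21 (adjusted p = 0.462) and Ccn1 to -0.47 (adjusted p = 0.129), and both calls ended. Ccn1 was also not called without the 2 arrays with lung markers (-0.48, adjusted p = 0.0684). The gap between 3' and 5' probe sets, a measure of RNA quality, differed between these groups for Gapdh but hardly for Actb. For Gapdh it ran over 0.06 to 0.90 in PKCε IgG mice and over -0.18 to 0.11 in FVB/N IgG mice. For Actb it averaged 0.09 in PKCε IgG and 0.10 in FVB/N IgG mice. With the Gapdh gap as a covariate the differences were -0.53 for Ccn1, 0.68 for Ccn2 and -0.62 for Ccn4. These are close to the values without it, but none of the 3 was called.

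**Figure D2:**
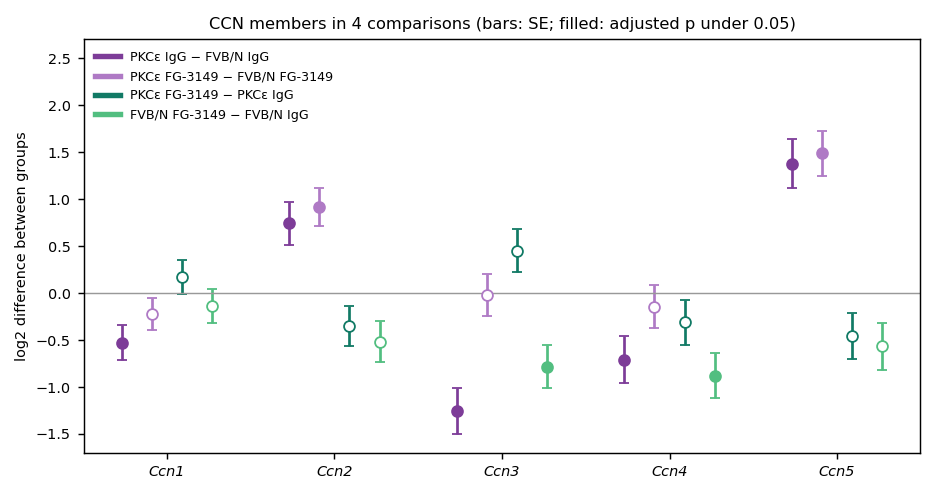
Log2 difference between 2 groups (vertical axis, with the SE as bars) of each CCN member in 4 comparisons, marked by colour, with filled points where the adjusted p was under 0.05. All 5 members are called between PKCε IgG and FVB/N IgG mice, Ccn2 and Ccn5 also between PKCε and FVB/N mice given FG-3149, and none between PKCε FG-3149 and PKCε IgG mice.

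The second comparison asks what the antibody against CTGF did to the family in PKCε mice. None of the 5 members was called between PKCε mice given FG-3149 and those given IgG, where 8.82% of all genes were. None passed an unadjusted p under 0.05 either. The PKCε IgG mice are shared with the first comparison, and the other comparisons share groups in the same way, so their values are set side by side only. Ccn2, which encodes the protein that FG-3149 binds, had a lowest, median and highest log2 ratio of -0.30, 0.36 and 1.07 in the 12 FG-3149 mice, against -0.33, 0.70 and 1.69 in the 10 IgG mice. Of the FG-3149 arrays, 9 lay below the IgG median and 0 lay below every IgG array. The difference was -0.35 ± 0.21 (adjusted p = 0.363), with a 95% confidence interval of -0.77 to 0.07.

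Ccn5 had -0.24, 0.69 and 1.18 in PKCε FG-3149 mice and 0.31, 0.71 and 2.90 in PKCε IgG mice, a difference of -0.46 ± 0.25 with an interval of -0.94 to 0.03. Without PKCε IgG replicate 9 it was -0.25. Of the FG-3149 arrays, 3 lay below every IgG array and 6 above the IgG median. Ccn4 had -0.65, -0.25 and 1.52 in PKCε FG-3149 mice and -0.66, -0.23 and 1.80 in PKCε IgG mice, with a difference of -0.31 ± 0.24.

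Ccn3 ran over -0.51, -0.17 and 2.16 in PKCε FG-3149 mice and over -0.89, -0.42 and 0.35 in PKCε IgG mice. Its difference was 0.45 ± 0.23 (interval -0.0008 to 0.90, adjusted p = 0.243 in limma), and 10 of the 12 FG-3149 arrays lay above the IgG median. The top values, 2.16 on replicate 9 and 0.74 on replicate 7, came from the 2 FG-3149 arrays with high atrial markers. Without replicate 9 the difference was 0.27. Ccn1 ran over -0.82, -0.16 and 1.18 in PKCε FG-3149 mice and over -0.67, -0.18 and 0.31 in PKCε IgG mice. Its probe sets gave 0.17 ± 0.18 and -0.012 ± 0.17.

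In FVB/N mice, the same antibody comparison called Ccn4 and Ccn3, both lower under FG-3149, where 9% of all genes were called and 4.57% were called lower. Ccn4 had -0.39, 0.08 and 1.06 in the 12 FVB/N FG-3149 mice, against -0.32, 1.24 and 3.36 in the 10 FVB/N IgG mice. It fell by 0.88 ± 0.24 (1.84-fold, adjusted p = 0.015), and by 0.60 ± 0.16 on the other probe set. Ccn3 had -0.16, 0.08 and 0.57 in FVB/N FG-3149 mice, against -0.28, 0.91 and 2.45 in FVB/N IgG mice. It fell by 0.78 ± 0.23 (1.72-fold, adjusted p = 0.0266), and by 0.80 ± 0.21 on the other probe set. Over all probe sets 8.53% were called here, the other ones of Ccn3 and Ccn4 among them.

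For Ccn2, Ccn3, Ccn4 and Ccn5, all 12 FVB/N FG-3149 arrays lay below the FVB/N IgG median. Ccn2 had -1.02, -0.49 and -0.20 in FVB/N FG-3149 mice and -0.97, -0.19 and 1.50 in FVB/N IgG mice, a difference of -0.52 ± 0.22 (adjusted p = 0.135) that was not called. Ccn5 had -1.81, -0.81 and -0.40 in FVB/N FG-3149 mice and -1.59, -0.14 and 0.16 in FVB/N IgG mice, with -0.57 ± 0.25 (adjusted p = 0.164). Ccn1 had -0.63, 0.26 and 0.82 in FVB/N FG-3149 mice and -0.35, 0.20 and 0.87 in FVB/N IgG mice, with -0.14 ± 0.18.

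The atrial markers moved with this comparison. Of 6 measured atrial markers, 5 were called lower in FVB/N FG-3149 mice, with log2 differences of -5.01 for Myl7 and -4.92 for Sln. The mean of the 6 ran over -2.06 to 2.03 in FVB/N FG-3149 mice and over -1.22 to 5.71 in FVB/N IgG mice. Ratios have no true zero, so which of these markers were absent from an array is not known. Without the arrays with high atrial markers, Ccn4 differed by -0.31 (adjusted p = 0.637) and Ccn3 by -0.33 (adjusted p = 0.463), neither called, and 217 of all genes were called in place of 1116. Ccn3 also lost its call without FVB/N IgG replicate 2 (-0.63, adjusted p = 0.0758) or replicate 3 (-0.73, adjusted p = 0.0552). With the same arrays left out Ccn2 differed by -0.073 (adjusted p = 0.974) and Ccn5 by -0.27 (adjusted p = 0.85). Leaving out FVB/N IgG replicate 10 alone brought Ccn2 (-0.64, adjusted p = 0.0349) and Ccn5 (-0.70, adjusted p = 0.0497) to a call.

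**Figure D3:**
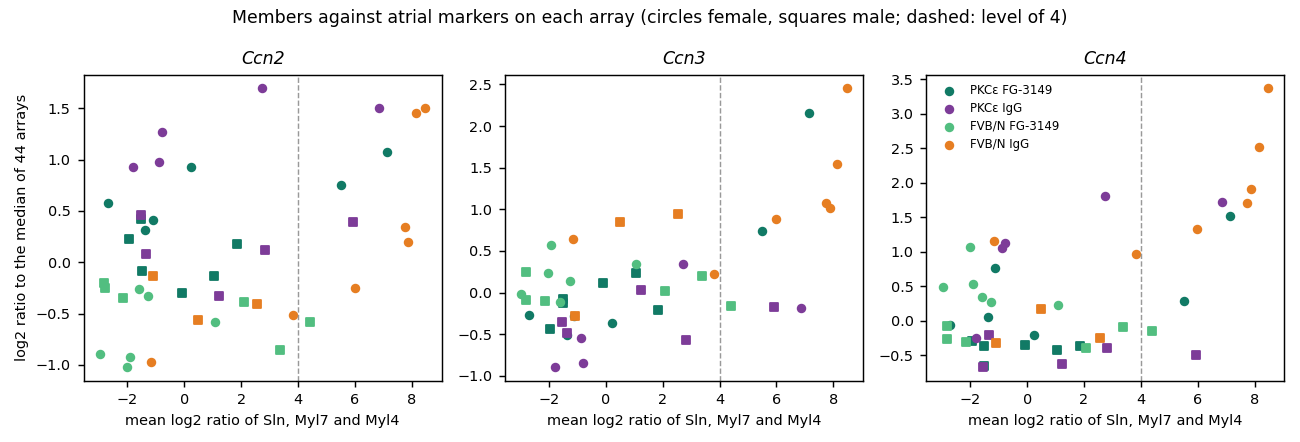
Log2 ratio of Ccn2, Ccn3 and Ccn4 (vertical axes) against the mean log2 ratio of the atrial markers Sln, Myl7 and Myl4 (horizontal axes) on each of 44 arrays, coloured by group, with females as circles, males as squares and a dashed line at 4. The highest Ccn3 and Ccn4 values, 2.45 and 3.36, lie on the FVB/N IgG array with the highest atrial markers.

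Within FVB/N IgG mice the 5 arrays with high atrial markers, all female, had higher means of 4 members. Ccn4 was 1.33, 1.71, 1.90, 2.51 and 3.36 on these arrays, against -0.32, -0.25, 0.17, 0.97 and 1.16 on the other 5, so the sets did not overlap. The 2 other females had 0.97 and 1.16, and the 3 males the lower values. Ccn3 averaged 1.40 ± 0.64 on the arrays with high atrial markers and 0.47 ± 0.51 on the others (SD, n = 5 each). Ccn2 averaged 0.65 ± 0.79 and -0.52 ± 0.30 in the same order, Ccn5 -0.0017 ± 0.16 and -0.65 ± 0.68, and Ccn1 0.29 ± 0.45 and 0.29 ± 0.49. Among the other arrays the 2 females and the 3 males averaged -1.37 and -0.18 for Ccn5. In the same order they averaged -0.74 and -0.37 for Ccn2 and 0.43 and 0.50 for Ccn3. The arrays with high atrial markers and the others were divided by a marker measured on the same arrays and are given as values, with no test.

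Whether the antibody effect differed between the lines was tested as an interaction, in which 3.86% of all genes were called. Ccn3 was the 1 member called: its antibody effect was higher in PKCε than in FVB/N mice by 1.23 ± 0.33 (adjusted p = 0.0218 in limma), and by 1.15 ± 0.29 on the other probe set (adjusted p = 0.0153, 4.06% of all probe sets called). Without the arrays with high atrial markers the value was 0.55 (adjusted p = 0.321), not called. The values of the other members were 0.31 ± 0.25 for Ccn1, 0.17 ± 0.31 for Ccn2, 0.57 ± 0.34 for Ccn4 and 0.11 ± 0.35 for Ccn5.

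Between PKCε and FVB/N mice that both received FG-3149, where 47% of all genes were called and 21.5% were called higher, Ccn5 and Ccn2 were higher in PKCε mice and the other members were not called. Ccn5 ran over -0.24, 0.69 and 1.18 in PKCε FG-3149 mice and over -1.81, -0.81 and -0.40 in FVB/N FG-3149 mice. All 12 PKCε arrays lay above every FVB/N array, as for 5.25% of all genes, and the difference was 1.49 ± 0.24 (2.80-fold, adjusted p = 2.22e-06). Ccn2 differed by 0.91 ± 0.20 (1.89-fold, adjusted p = 0.00037), with 11 of 12 PKCε arrays above every FVB/N array. These were 1.48 and 0.84, both still called, without the arrays with high atrial markers.

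Ccn3, Ccn4 and Ccn1 differed by -0.021 ± 0.22, -0.15 ± 0.23 and -0.22 ± 0.17 under the antibody. For Ccn3 the sign turned under several settings, and the interval was -0.45 to 0.41. The other probe set of Ccn4 was called (-0.37 ± 0.15, adjusted p = 0.0363, 45.1% of all probe sets called), so its probe sets disagree on the call here.

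The order of group means differs between members. Ccn2 was highest in PKCε IgG mice (0.71 ± 0.67), then PKCε FG-3149 (0.36 ± 0.42), FVB/N IgG (0.07 ± 0.83) and FVB/N FG-3149 mice (-0.55 ± 0.30, SD over arrays), and no neighbours in this order passed the test. Ccn5 had the same order, with 1.03 ± 0.87, 0.57 ± 0.46, -0.33 ± 0.58 and -0.92 ± 0.43, and the step between PKCε FG-3149 and FVB/N IgG mice passed (0.92 ± 0.25, adjusted p = 0.00386). In that comparison 33.5% of all genes were called. Across the ends of the order, PKCε IgG against FVB/N FG-3149 mice, Ccn5 differed by 1.94 ± 0.25 (3.85-fold) and Ccn2 by 1.26 ± 0.21 (2.40-fold), where 58.4% of all genes were called.

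Ccn3 and Ccn4 were instead highest in FVB/N IgG mice, with means of 0.93 ± 0.73 and 1.25 ± 1.19. For each, that group was separated from the next one in the order by a called difference, and the lower 3 groups were not separated from their neighbours. Both were also lower in PKCε FG-3149 than in FVB/N IgG mice, with -0.80 ± 0.23 for Ccn3 and -1.02 ± 0.24 for Ccn4. Leaving out the arrays with high atrial markers gave -0.66 and -0.53, and Ccn4 was then not called (adjusted p = 0.0509), while Ccn2 was (0.77, adjusted p = 0.0076). Ccn1 means lay between 0.29 ± 0.44 in FVB/N IgG and -0.20 ± 0.30 in PKCε IgG mice, and no neighbours differed beyond the test.

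Females and males were also compared in the same fit. Ccn4 was higher in females than in males by 1.19 ± 0.17 over all groups (2.28-fold, adjusted p = 5.04e-06), and by 0.47 ± 0.11 on the other probe set (adjusted p = 0.00351, 15.1% of all probe sets called). Over all genes 15.8% were called between the sexes, 8.67% as higher in females, and Ccn4 and Ccn2 were the 2 members called. In PKCε FG-3149 mice females had -0.20, 0.17 and 1.52 (lowest, median, highest, n = 6) and males -0.65, -0.36 and -0.30 (n = 6). In FVB/N FG-3149 mice females had 0.23, 0.42 and 1.06 (n = 6) and males -0.39, -0.21 and -0.08 (n = 6).

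In PKCε IgG mice Ccn4 was 1.71, 1.13, 1.05, 1.80 and -0.25 in the 5 females and -0.63, -0.39, -0.66, -0.21 and -0.49 in the 5 males. In FVB/N IgG mice females had 0.97, 1.71 and 3.36 (lowest, median, highest, n = 7) and the 3 males -0.32, 0.17 and -0.25. On this probe set, which carries the gene's value, females lay above every male in 3 of the 4 groups. In PKCε IgG mice 4 of 5 did, and replicate 10 was the exception. On the other probe set the sexes overlapped in each group. Its lowest female and highest male values were 0.37 and 0.40 in FVB/N IgG and -0.11 and 0.24 in FVB/N FG-3149 mice. They were -0.41 and -0.17 in PKCε IgG and -0.40 and -0.09 in PKCε FG-3149 mice. The share of all genes without overlap between the sexes was 2.36% in PKCε FG-3149, 15.1% in PKCε IgG, 0.831% in FVB/N FG-3149 and 2.9% in FVB/N IgG mice.

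Tested within each group, in a fit with a mean for each group and sex, the Ccn4 difference was called in PKCε IgG mice (1.56 ± 0.32, adjusted p = 0.00127, 12.2% of all genes called) and in FVB/N IgG mice (1.98 ± 0.35, adjusted p = 0.00135, 1.18%). When the arrays with high atrial markers were left out it was 1.40 in PKCε IgG mice (adjusted p = 0.000436), still called, and 1.19 in FVB/N IgG mice (adjusted p = 0.17, n = 2 females and 3 males), not called. It was 0.80 ± 0.29 in PKCε FG-3149 mice (adjusted p = 0.134, 1.75% of all genes called) and 0.70 ± 0.29 in FVB/N FG-3149 mice (adjusted p = 0.557, 0.258%). Over all groups it remained called without the arrays with high atrial markers (0.90, adjusted p = 3.92e-05), without those with lung markers, and without the array labelled female with high Uty.

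Ccn2 was also higher in females, by 0.50 ± 0.15 (1.42-fold, adjusted p = 0.0223). The difference was largest in size in PKCε IgG mice, where females had 1.50, 1.27, 0.97, 1.69 and 0.93 and males -0.33, 0.12, 0.46, 0.08 and 0.39. These did not overlap, and the difference was 1.13 ± 0.29 (adjusted p = 0.00834 in limma). Without the 2 arrays with lung markers, both females of this group, it was 1.10 and not called (adjusted p = 0.0579). It was 0.62 ± 0.26 in PKCε FG-3149, -0.23 ± 0.26 in FVB/N FG-3149 and 0.62 ± 0.31 in FVB/N IgG mice, none of them called. Over all groups the Ccn2 call ended without the arrays with atrial markers (0.28, adjusted p = 0.215) or with lung markers (0.46, adjusted p = 0.0512). Ccn5 was called between the sexes in PKCε IgG mice only among the 4 groups tested (0.98 ± 0.33, adjusted p = 0.0452), and whether this differs between groups is not shown by that call. It was 0.79 (adjusted p = 0.108) without the arrays with high atrial markers and 0.70 (adjusted p = 0.228) without those with lung markers, and the call was lost in 7 of 44 fits that left out 1 array.

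**Figure D4:**
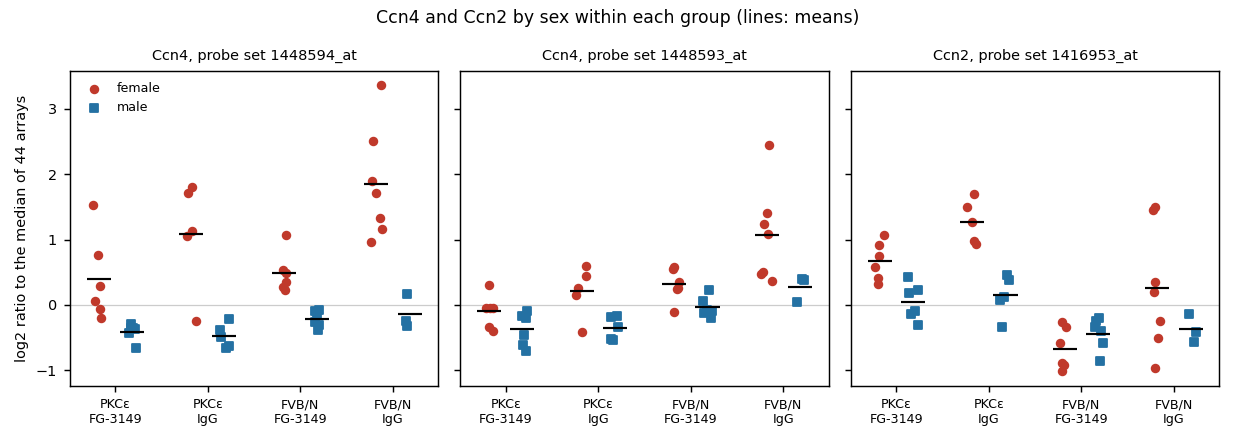
Log2 ratio to the median of 44 arrays (vertical axis) of both Ccn4 probe sets and of Ccn2 by group (horizontal axes), with females as circles, males as squares and lines at the means. On the first Ccn4 probe set females lie above every male in 3 of 4 groups, and Ccn2 separates the sexes in PKCε IgG mice.

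In the fit with a mean for each group and sex, the comparisons were also read within each sex. Under IgG, PKCε females differed from FVB/N females in 4 members, where 42.3% of all genes were called: Ccn5 by 1.91 ± 0.31 (adjusted p = 3.53e-06), Ccn2 by 1.02 ± 0.26 (0.00202), Ccn3 by -1.54 ± 0.32 (0.000157) and Ccn4 by -0.76 ± 0.30 (0.037). No member was called in males, where 14.5% of all genes were, with 0.71 ± 0.38 for Ccn5, 0.51 ± 0.33 for Ccn2 and -0.81 ± 0.40 for Ccn3. The male comparison rests on 5 PKCε and 3 FVB/N arrays. With the arrays with high atrial markers left out, 4 PKCε and 2 FVB/N females remained, and Ccn5 (2.68), Ccn2 (1.96) and Ccn3 (-0.91, adjusted p = 0.0103) were still called in females. Ccn4 was -0.13 (adjusted p = 0.75) and lost its call, as it did without those with lung markers (-0.55, adjusted p = 0.172), in a fit to females alone and in 6 of 44 fits that left out 1 array. In males Ccn3 was called without the arrays with high atrial markers (-0.85, adjusted p = 0.0178), which left 4 PKCε and 3 FVB/N males. The shares of 42.3% and 14.5% are from all arrays and do not apply to the fits without these arrays.

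Under FG-3149, PKCε females exceeded FVB/N females in Ccn5 (1.90 ± 0.30) and Ccn2 (1.34 ± 0.26), with 40.6% of all genes called. In males 19.6% of all genes were called, and of the members Ccn5 was (1.08 ± 0.30, adjusted p = 0.00844), while Ccn2 differed by 0.49 ± 0.26. The antibody comparison in FVB/N females, with 8.81% of all genes called, called Ccn4 (-1.36 ± 0.28, adjusted p = 0.00261), Ccn2 (-0.92 ± 0.25, 0.0175) and Ccn3 (-0.93 ± 0.30, 0.0463). These 7 IgG females include the 5 with high atrial markers. Without those arrays, and with 2 IgG females left, none of the 3 was called, with -0.57 for Ccn4, 0.073 for Ccn2, whose direction turned, and -0.24 for Ccn3. Leaving out 1 array lost the call of Ccn3 in 18 of 44 fits and that of Ccn2 in 2, without FVB/N IgG replicate 2 or 3. Without FVB/N FG-3149 replicate 11, the array labelled female with high Uty, Ccn3 had an adjusted p of 0.0639. In FVB/N males no member was called (0.42% of all genes were), and the difference of this antibody effect between the sexes was called for no member (0.00807% of all genes were), with -1.28 ± 0.46 for Ccn4.

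Whether the PKCε effect under IgG differed between females and males was tested directly, and no member was called (0.0807% of all genes were). Ccn5 had the largest of these differences in size, 1.20 ± 0.49 (adjusted p = 0.513), and Ccn2 had 0.51 ± 0.42. Without the arrays with high atrial markers, which left 2 FVB/N IgG females and 3 males, the sex differences of Ccn2 (1.50, adjusted p = 0.0113) and Ccn5 (1.98, adjusted p = 0.0468) were called. The share of 0.0807% is from all arrays and does not apply to this smaller fit. Many more genes were called in the smaller fit, with their number in the closing section. The antibody effect in PKCε mice was not called to differ between the sexes for any member (0.0161% of all genes were). It was -0.60 ± 0.27 for Ccn2, -0.81 ± 0.32 for Ccn5 and -0.69 ± 0.31 for Ccn4 in females, where 10.3% of all genes and none of the members were called. Ccn2 was called in females without the arrays with high atrial markers (-0.66, adjusted p = 0.0429), to which the 10.3% does not apply. This left 4 FG-3149 and 4 IgG females. The IgG females left include replicates 9 and 10, the arrays with lung markers, and replicate 9 had the highest Ccn2 value of its group (1.69). In males the antibody effect was -0.095 ± 0.27 for Ccn2, -0.11 ± 0.32 for Ccn5 and 0.068 ± 0.31 for Ccn4. There 0.0565% of all genes and none of the members were called.

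Members were then compared by how they varied between mice of the same group and sex, as deviations from the 8 means of group and sex over 44 arrays. Of 10 pairs, 3 passed by both Pearson's r and Spearman's rho after adjustment over the pairs (permutation within group and sex). Ccn3 and Ccn4 had r = 0.73 (adjusted p = 0.0007) and rho = 0.51 (adjusted p = 0.0184), and r = 0.57 without the 2 arrays farthest out in Ccn3. Ccn1 and Ccn2 had r = 0.47 (adjusted p = 0.004) and rho = 0.52 (adjusted p = 0.007). Ccn3 and Ccn5 had r = 0.44 (adjusted p = 0.0071) and rho = 0.40 (adjusted p = 0.0363).

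Without the 10 arrays with high atrial markers these 3 pairs had r = 0.42, 0.44 and 0.48 over 34 arrays. By contrast Ccn2 passed with Ccn4 (0.59), Ccn3 (0.46) and Ccn5 (0.45) by r but not by rho, and these were 0.01, -0.19 and 0.24 without the 10 arrays. Within single groups the pair Ccn3 and Ccn4 ran from r = 0.24 in FVB/N FG-3149 to 0.89 in FVB/N IgG mice. The pair Ccn1 and Ccn2 ran from -0.054 in PKCε IgG to 0.78 in PKCε FG-3149 mice. All members share a library on each array, so such values are not free of array quality or tissue makeup.

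The genes most like each member were read from the same deviations as a description, with 1 probe set per gene. Ccn1 was most like Egr1 (r = 0.90), Btg2 (0.89) and Egr2 (0.88), which are immediate early genes, and these were also its first 3 without the arrays with high atrial markers (0.90, 0.88 and 0.87). Ccn5 was most like Ecrg4 (0.85), the elastic fibre protein gene Fbln5 (0.80) and the secreted Wnt modulator Sfrp2 (0.78), which were 0.80, 0.72 and 0.74 without those arrays. Ccn2 was most like the membrane skeleton gene Add3 (0.84), the G protein subunit Gng2 (0.80) and the smooth muscle light chain Myl9 (0.80), which came to 0.67, 0.34 and 0.47 without those arrays. Ccn3 was most like the protease gene Ctsh (0.83), the proteoglycan Epyc (0.81) and the metal transporter Slc39a8 (0.79), which were 0.76, 0.61 and 0.64 without those arrays. Ccn4 was most like Lad1 (0.83), Pdk3 (0.83) and Mrps6 (0.80), which were 0.55, 0.54 and 0.42 without them. The ranks without those arrays were 10, 903 and 204 for the Ccn2 genes and 22, 233 and 177 for the Ccn3 genes. They were 45, 55 and 299 for the Ccn4 genes and 3, 12 and 9 for the Ccn5 genes.

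**Figure D5:**
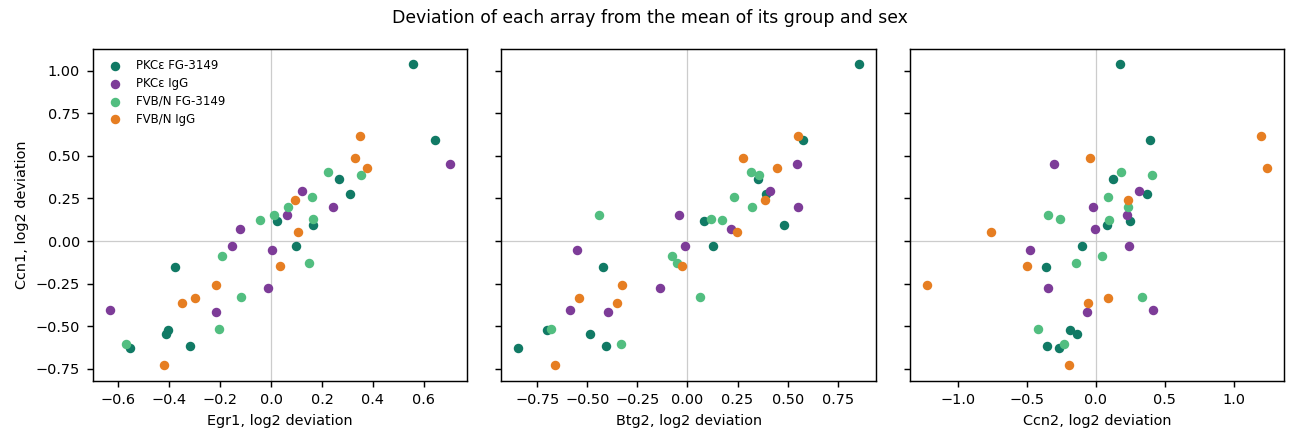
Deviation of Ccn1 from the mean of its group and sex (vertical axis, log2) against the same deviation of Egr1, Btg2 and Ccn2 (horizontal axes, log2) on 44 arrays coloured by group. The Egr1 and Btg2 points lie close to a line (r = 0.90 and 0.89), and the Ccn2 points are spread more widely (r = 0.47).

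Ccn1 also divided the PKCε FG-3149 males. Replicates 4, 5 and 6 had 0.51, 1.18 and 0.42, while replicates 10, 11 and 12 had -0.47, -0.38 and -0.40. Of the 17 measured immediate early genes, 9 fell (52.9%, against 21.5% of all genes) and 0 rose in PKCε IgG against FVB/N IgG mice, with a median difference of -0.38, against -0.05 for all genes. The stress factor gene Atf3 fell by 1.59 ± 0.35, the antiproliferative gene Btg2 by 0.72 ± 0.20 and the mRNA decay factor gene Zfp36 by 0.57 ± 0.18. Without the arrays with atrial markers 2 of the 17 were called lower (11.8%, against 18.8% of all genes), and without those with lung markers 4 (23.5%, against 16.4%). The mean of the list ran over -0.70 to 0.38 in PKCε IgG mice and over -0.49 to 0.73 in FVB/N IgG mice. No member of the list was called for the antibody in either line.

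The counts that follow are for PKCε IgG against FVB/N IgG mice, where 20.7% of all genes rose and 21.5% fell, so a list with about 2 in 5 of its genes called is near the share of all genes. Of 14 measured CCN receptors, 5 rose and 1 fell, near that share in all. The integrin subunits Itgb5 (1.27 ± 0.09) and Itgav (0.79 ± 0.10), which pair as a receptor for CCN1 and CCN2, rose, as did the endocytic receptor Lrp1 (1.21 ± 0.14). The 1 receptor that fell was Notch1 (-0.41), named after its value was seen. Of 10 binding partners 7 rose and 1 fell, including Bmp4 (1.19 ± 0.15), a growth factor that CCN2 can bind, the proteoglycan Hspg2 (0.81 ± 0.10) and decorin, Dcn (0.39 ± 0.06). The 1 that fell was Vegfa (-0.39), also named after its value was seen.

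Of 15 Hippo pathway genes 5 rose and 1 fell, also near the share of all genes called in either direction. The effectors Yap1 (0.64 ± 0.09) and Wwtr1 (0.44 ± 0.08), which encodes TAZ, were among those that rose, as was the kinase adaptor Mob1b (0.32 ± 0.05). The 1 that fell was Lats1 (-0.19), named after its value was seen. Of 17 other YAP targets 7 rose and 0 fell, near that share only when both directions are counted together. All 7 calls were rises, where 20.7% of all genes rose and 21.5% fell. Those that rose include Tgfb2 (1.77 ± 0.15), the phosphatase Ptpn14 (1.08 ± 0.15) and the stress gene Ankrd1 (0.84 ± 0.12). Medians were 0.04 and 0.03 over these 2 lists, against -0.05 for all genes.

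Of 13 TGF-β pathway genes 7 rose and 0 fell, with a median of 0.40. They include Tgfb2, also counted as a YAP target, Tgfb3 (1.28 ± 0.18) and the receptor Tgfbr2 (0.79 ± 0.10). All 11 measured fibrotic matrix genes rose, with a median of 1.46, including the collagens Col1a2 (1.91 ± 0.17), Col5a1 (1.20 ± 0.10) and Col5a2 (1.88 ± 0.18). All 11 were also called without the arrays with atrial or with lung markers. Of 7 insulin-like growth factor binding proteins, to which the first CCN module is related, 3 rose and 0 fell: Igfbp7 by 1.21 ± 0.10, Igfbp4 by 0.70 ± 0.20 and Igfbp6 by 0.70 ± 0.21.

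The serum response factor list held 14 genes: Srf itself, its cofactors Mrtfa and Mrtfb, and targets. Of the 14, 3 rose and 2 fell, near the share of all genes. Among these were tropomyosin Tpm1 at -0.78 ± 0.19, the cofactor Mrtfa at 0.40 ± 0.11 and filamin Flna at 0.46 ± 0.13. Of 13 Wnt targets and modulators 3 rose and 3 fell, likewise near it, and the 3 with the lowest p were Sfrp1 (1.09 ± 0.12), Nkd2 (1.82 ± 0.21) and Sfrp2 (1.62 ± 0.34). Fibroblast markers moved with these lists. Of 8 measured, 7 rose and 0 fell, and their mean ran over 0.04 to 0.94 in PKCε IgG mice and over -0.83 to 0.40 in FVB/N IgG mice. Their part in the CCN results was not tested.

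In PKCε FG-3149 against PKCε IgG mice 3.74% of all genes were called lower and 5.08% higher. Here the Gapdh gap ran over -0.14 to 0.22 in PKCε FG-3149 and over 0.06 to 0.90 in PKCε IgG mice. The Actb gap overlapped more, over -0.27 to 0.31 in PKCε FG-3149 and over -0.19 to 0.56 in PKCε IgG mice. With the Gapdh gap as a covariate fewer genes were called, with their number in the closing section. Fibrotic matrix genes fell in 7 of 11 cases, with Timp1 by 1.30 ± 0.26, Postn by 1.01 ± 0.23 and Col5a2 by 0.78 ± 0.17, and in 4 and 5 cases without the arrays with atrial or lung markers. Among TGF-β genes Tgfb3 (-0.60 ± 0.17) and Tgfbr2 (-0.29 ± 0.09) fell, among binding partners Tnfrsf11b (-0.45 ± 0.14) and Hspg2 (-0.30 ± 0.10), among receptors Fgfr2 (-0.46 ± 0.14), and among binding protein genes Igfbp7 (-0.41 ± 0.09). Nkd2 (-0.84 ± 0.20) and Sfrp1 (-0.42 ± 0.11) fell among Wnt genes, Mob1b (-0.18 ± 0.05) among Hippo genes and the calponin Cnn2 (-0.43 ± 0.10) among serum response factor targets. Of the YAP targets, F3 rose (0.30 ± 0.07) and Dock5 fell (-0.28 ± 0.09). Without the arrays with lung markers 0 receptors, binding partners, TGF-β, Hippo and Wnt genes of these lists were called, where 440 of all genes were. The antibody comparison in FVB/N mice called 4.57% of all genes lower. Of the 11 matrix genes it called Timp1 (-0.88 ± 0.26) and Col3a1 (-0.63 ± 0.19), and the rest had negative values without a call. In the interaction, where 3.86% of all genes were called, no matrix gene was, so their fall is not shown to be particular to PKCε mice.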

How the data were processed

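Per the labels and the series' design text, the authors ran GCRMA on the scanned arrays and then divided each gene by its median in GeneSpring GX 7.3.1. The GCRMA version is not given in the sources used here. What they deposited is a linear ratio per probe set and array, and each of the 22690 probe sets has a median of 1 (tolerance 0.001). Log2 of each ratio was taken here. Of the probe sets 20393 named 1 gene in the platform annotation, which gave 12394 genes, each by its probe set with the largest SD over 44 arrays. Groups came from the sample titles and sex from the labels. Groups were compared in limma 3.58.1 (R 4.3.3, lmFit and eBayes, two-sided) with terms for group and sex over all arrays, and sex interactions used 8 means of group and sex. Relations used 100000 permutations within group and sex. The method was tested on simulated data. The members and lists were chosen with earlier results of these data known. Text names the members, the 3 genes most like each, and up to 3 called genes with the lowest p per list and comparison. No scan date or batch was used, the labels state biological replicates, and precision is limited by how many arrays each group has. Alternatives (scaling, filter, pseudocount or floor of 0.1, probe set rule, weights, covariates, fewer arrays) are given in the closing section. Ccn6 and protein levels were not analysed here.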

Additional observations from a re-analysis of the deposited data

Results flagged for a closer look

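The antibody effect on Ccn3 differed between the lines by a test of the difference itself. It was higher by 1.23 ± 0.33 on the log2 scale in PKCε than in FVB/N mice (adjusted p = 0.0218 in limma), with 0.45 ± 0.23 in PKCε mice and -0.78 ± 0.23 in FVB/N mice. Atrial markers moved with it: 2 of 12 PKCε FG-3149, 2 of 10 PKCε IgG, 1 of 12 FVB/N FG-3149 and 5 of 10 FVB/N IgG arrays were above 4. Without these 10 arrays the value was 0.55 (adjusted p = 0.321). Dixon's test was run in the IgG groups of 10 mice only, and there no member had a single array that stood apart. The FG-3149 groups of 12 mice, which also enter this difference, were not tested. In PKCε FG-3149 mice the highest Ccn3 value was 2.16, on replicate 9, and the next was 0.74.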

How the results depend on the processing

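Of 540 values of members under alternatives that left out no single array, 489 kept direction and side of the threshold. The replicate number was used as a block in 1 alternative: same-numbered arrays of different groups did not deviate together (median r = -0.002 over 62 pairs), so the numbers share only a name. With this replicate block Ccn2 differed by 0.75 between PKCε IgG and FVB/N IgG mice, and no member's call changed in the 4 group comparisons of the plot of differences, the interaction or female minus male. In comparisons within 1 sex, added after seeing the data, the replicate block ended the calls in FVB/N females of Ccn4 (-1.04), Ccn2 (-0.70) and Ccn3 (-0.72), ended that of Ccn4 between PKCε and FVB/N females under IgG (-0.69), and brought Ccn5 to a call for the antibody in PKCε females (-1.08). The planned removal of arrays labelled female with Uty above the lowest male array found no array and was not run. The array with Uty above 1, the lung marker covariate and the removals for sex results were added after seeing the data. Where a cause is not named, it was not tested. Atrial arrays are the 10 with high atrial markers, and lung arrays the 2 with high lung markers.

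PKCε IgG minus FVB/N IgG. Ccn1 lost its call with the Gapdh covariate (-0.53), array weights (-0.41), females only (-0.39), males only (-0.63), quantile normalization (-0.51), and without atrial (-0.47) or lung arrays (-0.48). Ccn2 lost it with the Gapdh covariate (0.68) and males only (0.51). Ccn4 lost it with the Gapdh covariate (-0.62), the atrial covariate (-0.44), females only (-0.76), only the groups compared (-0.60) and without atrial arrays (-0.21). Ccn5 lost it with males only (0.71). Antibody in FVB/N: Ccn3 lost it with the atrial covariate (-0.28), females only (-0.93), males only (-0.49) and without atrial arrays (-0.33), and Ccn4 with the atrial covariate (-0.43), males only (-0.080) and without atrial arrays (-0.31). Ccn5 gained a call with only the groups compared (-0.67), and Ccn1 turned positive with array weights (0.0093) and males only (0.037). Fits on 1 sex or 2 groups hold fewer arrays.

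Interaction: Ccn3 lost its call with the atrial covariate (0.82), females only (1.60), males only (0.72) and without atrial arrays (0.55). Uncalled values that turned negative were Ccn2 with the atrial covariate (-0.084), males only (-0.026) and without atrial arrays (-0.30), Ccn4 without atrial arrays (-0.016), and Ccn5 with the atrial covariate (-0.21), females only (-0.0099) and without atrial arrays (-0.10). Antibody in PKCε: Ccn1 turned to -0.055 in females only and Ccn4 to 0.068 in males only. PKCε minus FVB/N under FG-3149: Ccn3 turned positive with the Gapdh covariate (0.015), array weights (0.029), median centring (0.0027), the mean of probe sets (0.0072) and females only (0.053). Female minus male: Ccn2 lost its call without atrial (0.28) or lung arrays (0.46), and without atrial arrays Ccn3 and Ccn5 each turned to -0.077. Sex differences without atrial arrays: of the PKCε effect, Ccn2 (1.50) and Ccn5 (1.98) gained a call and Ccn4 turned to 0.21, and of the antibody effect in PKCε mice, Ccn3 turned to -0.14.

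Genes called moved by over 1.5 times as follows. PKCε IgG minus FVB/N IgG gave 2169 in males only, and PKCε minus FVB/N under FG-3149 gave 2829. The antibody in PKCε gave 480 with the Gapdh covariate, 57 in males only, 528 without atrial and 440 without lung arrays. The antibody in FVB/N gave 266 with the atrial covariate, 406 in females only, 57 in males only and 217 without atrial arrays. The interaction gave 725 with the Gapdh covariate, 110 in females only, 37 in males only and 127 without atrial arrays. Female minus male gave 1174 without atrial arrays, the sex difference of the PKCε effect gave 343, and that of the antibody effect in PKCε gave 5 without atrial and 5 without lung arrays. Testing each of 20393 probe sets gave 8500 calls for PKCε IgG minus FVB/N IgG, 1757 for the antibody in PKCε, 1739 for the antibody in FVB/N, 9204 for PKCε minus FVB/N under FG-3149 and 828 for the interaction.

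Leaving out 1 array at a time, Ccn4 between PKCε IgG and FVB/N IgG mice ran over -0.82 to -0.53 and lost its call without PKCε IgG replicate 10. For the antibody in FVB/N, Ccn3 ran over -0.92 to -0.63 (lost without FVB/N IgG replicate 2 or 3), Ccn2 over -0.64 to -0.38 and Ccn5 over -0.70 to -0.47 (both gained without replicate 10), and 741 to 1484 genes were called, the lowest without FVB/N IgG replicate 2. Ccn3 between PKCε and FVB/N mice under FG-3149 ran over -0.20 to 0.045, and Ccn1 in the sex difference of the PKCε effect over -0.0086 to 0.60. That sex difference called 7 to 17 genes, and that of the antibody effect in PKCε mice 2 to 6. In the 4 group comparisons shown in the plot of differences, the interaction, female minus male and these 2 sex differences, no other call of a member changed when 1 array was left out. Within 1 sex or group, 1 array left out ended the call of Ccn3 (18 of 44 fits) and Ccn2 (2) for the antibody in FVB/N females, of Ccn5 between the sexes of PKCε IgG mice (7) and of Ccn4 between PKCε and FVB/N females under IgG (6). It brought a call to Ccn5 in FVB/N females (3), Ccn4 and Ccn5 in PKCε females (2 each) for the antibody, and Ccn1 between males under IgG (1). Among groups it did so for Ccn1 (7) and Ccn3 (3) between PKCε IgG and FVB/N FG-3149 mice, and for Ccn1 and Ccn2 (2 each) between PKCε FG-3149 and FVB/N IgG mice. Second probe sets were not run with single arrays left out.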
